A study of Homo sapiens with 13 samples.

Results

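Glycolysis and the response to low oxygen were described in MDA-MB-231 cells through the chromatin of 10 genes. These were LDHA, ENO1, ALDOA, HK2 and PFKFB3, which encode enzymes of glycolysis or its control, SLC2A1 and SLC2A3, which encode glucose transporters, and VEGFA, CA9 and HIF1A of the hypoxia response. The 10 genes were taken by name from the 19881 protein-coding genes that have a canonical transcription start site (TSS) on chromosomes 1 to 22, X and Y. MDA-MB-231 is an established human line from a triple-negative breast cancer of the basal B class, and the cells were grown in ordinary culture, with no treatment, low-oxygen exposure or genetic change given in the labels. Chromatin immunoprecipitation and sequencing had been carried out for H3K4me3, H3K27ac, H3K4me1, Pol II and CTCF, with 2 libraries each, and for p300/CBP, with 1 library. One list of peak positions per antibody was available, called after the libraries had been merged, and the 2 input libraries were not analysed here. A peak in these lists has a position and a width but no height, so sequencing depth is unknown and no error between replicates or test between conditions can be given.

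Glycolysis splits glucose into pyruvate, and many cancer cells run it fast and turn the pyruvate into lactate even when oxygen is present. The pathway is coupled to oxygen by the transcription factor HIF-1, made of HIF1A and ARNT, which binds short DNA elements with the core RCGTG, and whose HIF1A subunit is destroyed when oxygen is plentiful. Glucose transporters, most glycolytic enzymes, VEGFA and CA9 are textbook HIF targets. H3K4me3 and H3K27ac mark active promoters, H3K4me1 with H3K27ac marks active enhancers, p300/CBP are acetyltransferases recruited to enhancers, and CTCF is the insulator protein that anchors chromatin loops.

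The sequences that carry the HIF core came first, because every gene of the set held one near its start, and several of the genes were chosen as HIF targets. ACGTG or GCGTG, which together make up RCGTG, was searched on both strands from 250 bases upstream to 50 bases downstream of the TSS in GRCh37. All 10 windows held at least 1 match, against 56.5% of the 19881 windows of the same length. Both cores contain CG, and the windows compared were not matched for their content of G and C. ACGTG was present in 6 of them (23.3% of all windows) and GCGTG in 6 (45.0%). A match is a description of letters, and HIF binding was not measured here. LDHA, the enzyme that makes lactate, and HK2, the hexokinase that starts glycolysis, are shown upstream of the TSS for their clusters of cores, and PFKFB3 and CA9 as short stretches around theirs, all read in the direction of transcription, with every ACGTG and GCGTG of either strand in capitals.
LDHA, chr11:18415860-18416106, + strand: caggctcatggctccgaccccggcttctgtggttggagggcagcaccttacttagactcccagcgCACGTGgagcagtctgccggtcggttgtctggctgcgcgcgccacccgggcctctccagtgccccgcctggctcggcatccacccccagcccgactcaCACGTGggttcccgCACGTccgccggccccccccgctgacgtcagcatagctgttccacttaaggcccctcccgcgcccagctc
HK2, chr2:75061004-75061253, + strand: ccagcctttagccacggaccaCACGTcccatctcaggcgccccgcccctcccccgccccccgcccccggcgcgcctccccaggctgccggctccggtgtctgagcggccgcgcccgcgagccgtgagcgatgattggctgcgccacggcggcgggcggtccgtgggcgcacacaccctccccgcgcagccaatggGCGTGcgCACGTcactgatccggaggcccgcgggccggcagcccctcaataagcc
PFKFB3, chr10:6244770-6244799, + strand: tcgcccaccctcctcccCACGTGgaagggg
CA9, chr9:35673895-35673924, + strand: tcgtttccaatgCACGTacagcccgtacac

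LDHA had 5 matches to ACGTG, of which 4 came from a pair of CACGTG runs that read the same on both strands, and 1 match to GCGTG beyond the TSS, outside the stretch shown. HK2 had 2 matches to ACGTG and 1 to GCGTG. The single core of CA9, a cell-surface carbonic anhydrase, began 18 bases before the TSS. Its window was the 1 window of the 10 that also held TGANTCA, the AP-1 site with any middle base, as 5.40% of all windows did. In SLC2A1 and SLC2A3 the core lay downstream of the TSS, from base 26 and base 41 counted from 1 at the TSS, and not before it. Bases G and C made up between 53.2% of the 250 upstream bases in SLC2A3 and 76.8% in HK2, with 60.4% in CA9.

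The promoters of 9 of the 10 genes carried the marks of active genes, and CA9 was the exception. A 3 kb window centred on the canonical TSS shared at least 1 bp with an H3K4me3 peak in 9 genes (62.7% of all protein-coding genes), with an H3K27ac peak in 9 (61.5%), with an H3K4me1 peak in 9 (59.4%) and with a Pol II peak in 9 (58.4%). The same 9 genes held H3K4me3, H3K27ac and Pol II, and in all 9 the TSS base itself lay in peaks of these 3 lists. No gene held a p300/CBP peak in its window, where 0.704% of all genes did, and 3 held a CTCF peak (17.6%). With so few genes, these counts describe the set and were not tested against the rest.

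**Figure D1:**
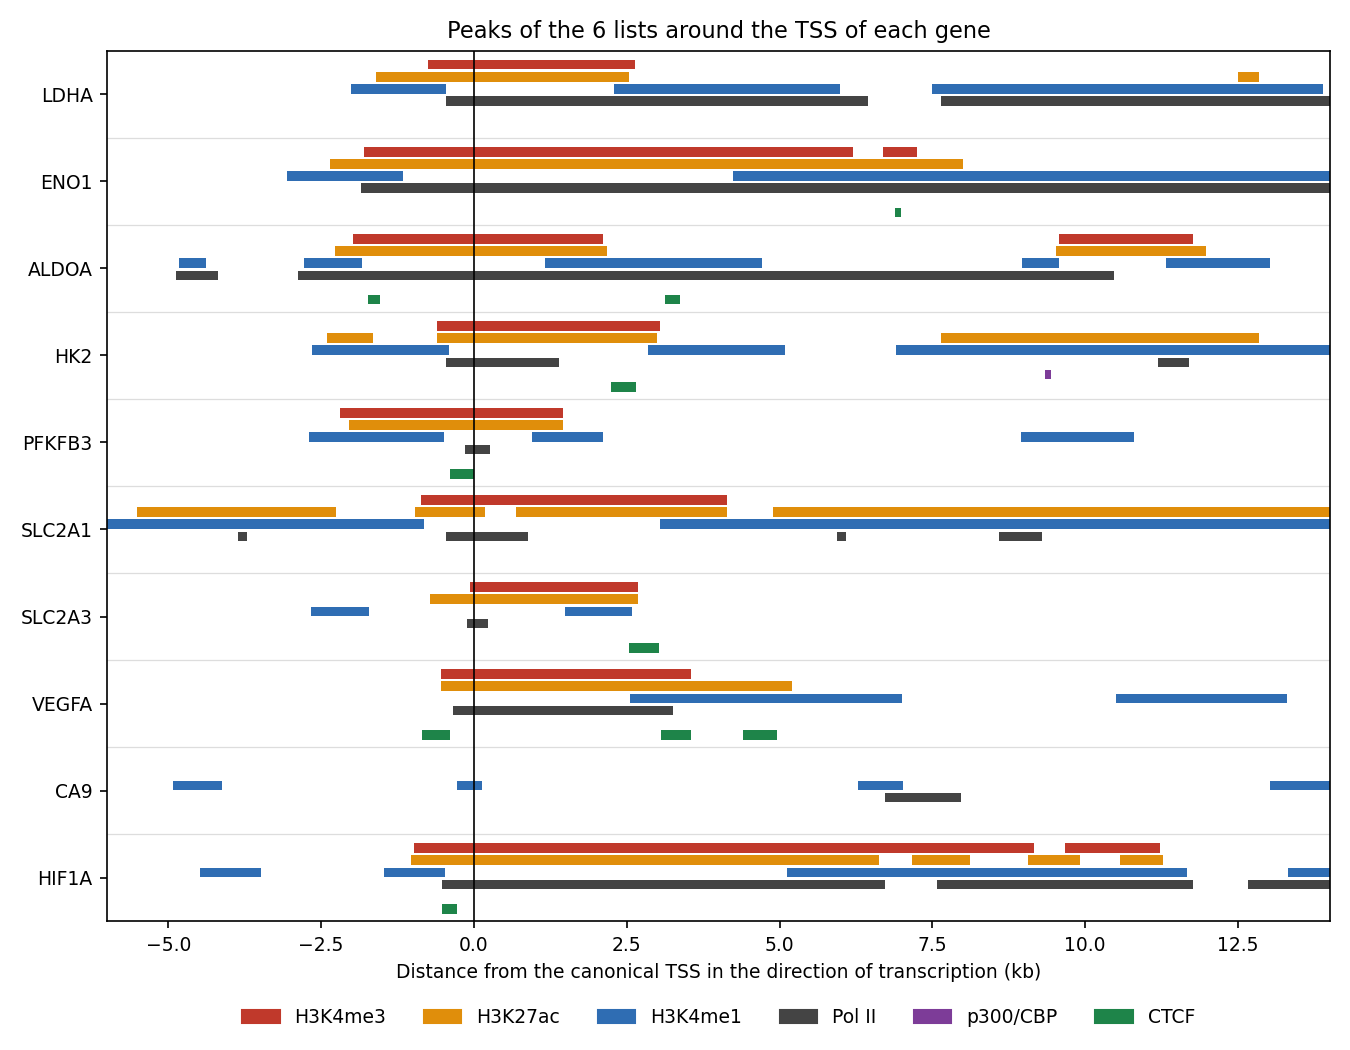
Peaks of the 6 lists from 6 kb before to 14 kb after the canonical TSS of each gene, drawn in the direction of transcription, 1 colour per list. H3K4me3, H3K27ac and Pol II bars cross the TSS line in 9 genes, where H3K4me1 bars stand beside the line and not on it. At the line CA9 has only an H3K4me1 bar of 400 bp, with other H3K4me1 bars and a Pol II bar further off.

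Among the enzymes, ENO1 had the broadest promoter. ENO1, the enolase near the end of the pathway, had an H3K4me3 peak of 8000 bp and an H3K27ac peak of 10350 bp, wider than the widest peak at 99.3% and 99.2% of the windows that had such a peak. ALDOA, the aldolase that cleaves fructose bisphosphate, had peaks of 4100 and 4450 bp, and LDHA of 3400 and 4150 bp. HK2 had 3650 and 3600 bp, and PFKFB3, which makes the activator of phosphofructokinase, 3650 and 3500 bp. These 5 enzymes therefore differed little in promoter width except for ENO1, and all lay above the genome-wide medians of 2250 bp for H3K4me3 and 2100 bp for H3K27ac. Peak width is not height: it also depends on the threshold and on the joining of bins across gaps.

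Both transporters were marked, over different lengths. SLC2A1, which encodes GLUT1, had an H3K4me3 peak of 5000 bp and 2 H3K27ac peaks of 3450 and 1150 bp, the smaller one over the TSS. Its H3K4me1 peak began 812 bp before the TSS and ran 8750 bp, wider than at 97.7% of marked windows. SLC2A3, which encodes the high-affinity transporter GLUT3, had 2750 bp of H3K4me3 and 3400 bp of H3K27ac, and its H3K4me3 peak reached only 67 bp upstream of the TSS against 2682 bp downstream. The SLC2A3 peak was the narrowest H3K4me3 peak of the 9.

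VEGFA, the angiogenic growth factor, had 4100 bp of H3K4me3 and 5750 bp of H3K27ac, and was the 1 gene with no H3K4me1 in its window. Its nearest H3K4me1 region began 2.55 kb downstream of the TSS. HIF1A had the widest H3K4me3 peak of the set, 10150 bp, wider than at 99.7% of marked windows, and an H3K27ac peak of 7650 bp. CA9 had neither, and its 400 bp H3K4me1 peak was wider than at only 3.27% of windows with H3K4me1.

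**Figure D2:**
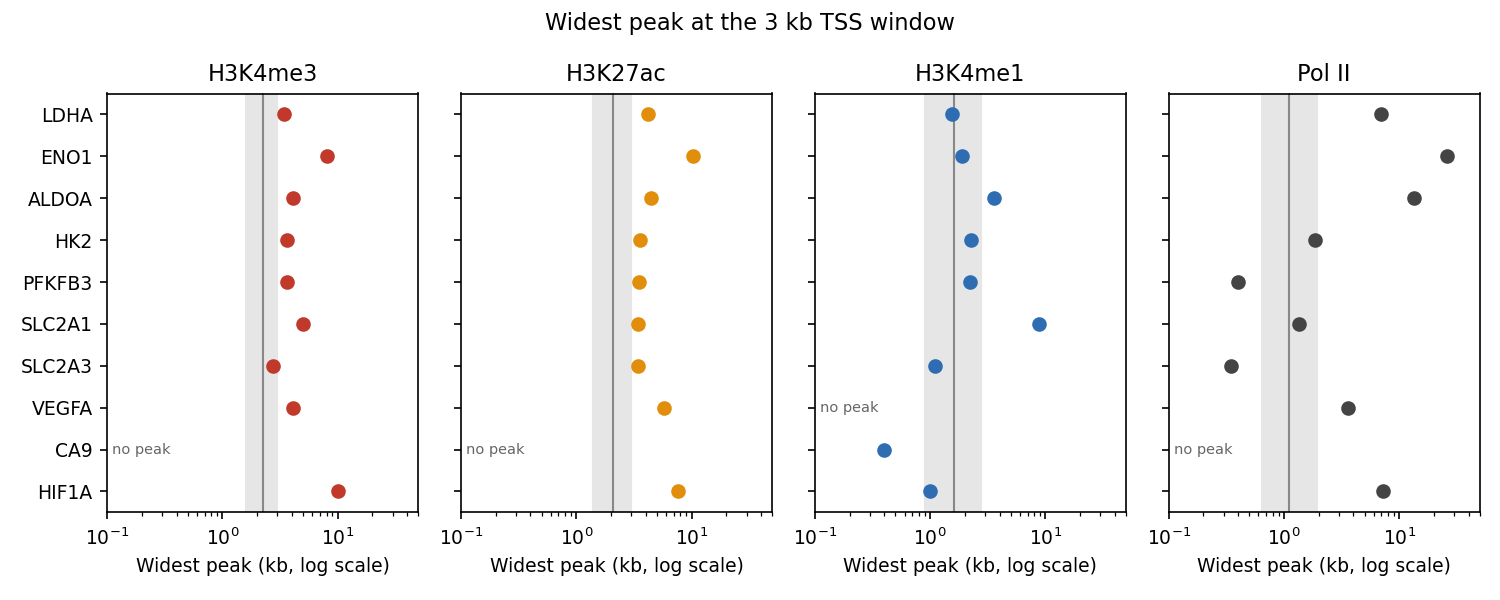
Width in kb (log axis) of the widest H3K4me3, H3K27ac, H3K4me1 and Pol II peak at the 3 kb TSS window of each gene, as points. The grey line and band give the median and the interquartile range of all protein-coding windows with a peak of that list, and 8 of 9 H3K4me3 points and 9 of 9 H3K27ac points lie right of the band.

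The marks were not centred on the TSS. The H3K4me3 peak ran further downstream than upstream in 8 of 9 genes, PFKFB3 being the exception, where 73.7% of genes with the TSS base in an H3K4me3 peak had this form. For H3K27ac it was 6 of 9 (67.0%), and for Pol II 9 of 9 (44.6%). H3K4me1 left the TSS itself free in 8 of the 9 genes whose window it touched, and in CA9, the only one without H3K4me3, it covered the TSS. Over all genes the TSS base lay in an H3K4me1 peak in 8.38%. The share was 10.2% of H3K4me1 windows that also had H3K4me3, and without H3K4me3 it was 606 of 1377 windows.

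By the pattern of presence over the 6 lists, most of the set looked like a large class of genes. LDHA, ENO1, ALDOA, HK2, SLC2A1 and SLC2A3 had the 3 histone marks and Pol II without p300/CBP or CTCF, a pattern of 7195 genes or 36.2%. PFKFB3 and HIF1A had CTCF in addition, as 2308 genes (11.6%) did. VEGFA had H3K4me3, H3K27ac, Pol II and CTCF but no H3K4me1, a pattern of 388 genes (1.95%). CA9 had H3K4me1 alone, with 854 genes (4.30%).

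Pol II cover of the transcript separated genes that were alike in having H3K4me3 and H3K27ac at the TSS. Peaks covered all of the canonical transcript in ENO1 (17.7 kb) and ALDOA (4.66 kb), 96.7% in HIF1A (52.7 kb) and 91.3% in LDHA (13.9 kb). The cover was 35.0% in SLC2A1 and 20% in VEGFA. It was 3.20% in HK2, 1.37% in SLC2A3 and 0.785% in PFKFB3, whose Pol II peaks at the TSS measured 1850, 350 and 400 bp. So 4 of 10 genes had Pol II over more than 50% of the transcript, where 7.04% of all protein-coding genes did, and 3 with H3K4me3 peaks of 2750 bp or more had Pol II at the start and little beyond it. Of the 4, ALDOA lay under a peak that also reached the TSS of PPP4C, the next gene. The median over all protein-coding genes was 0.560%, and 7721 of them had no cover at all.

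**Figure D3:**
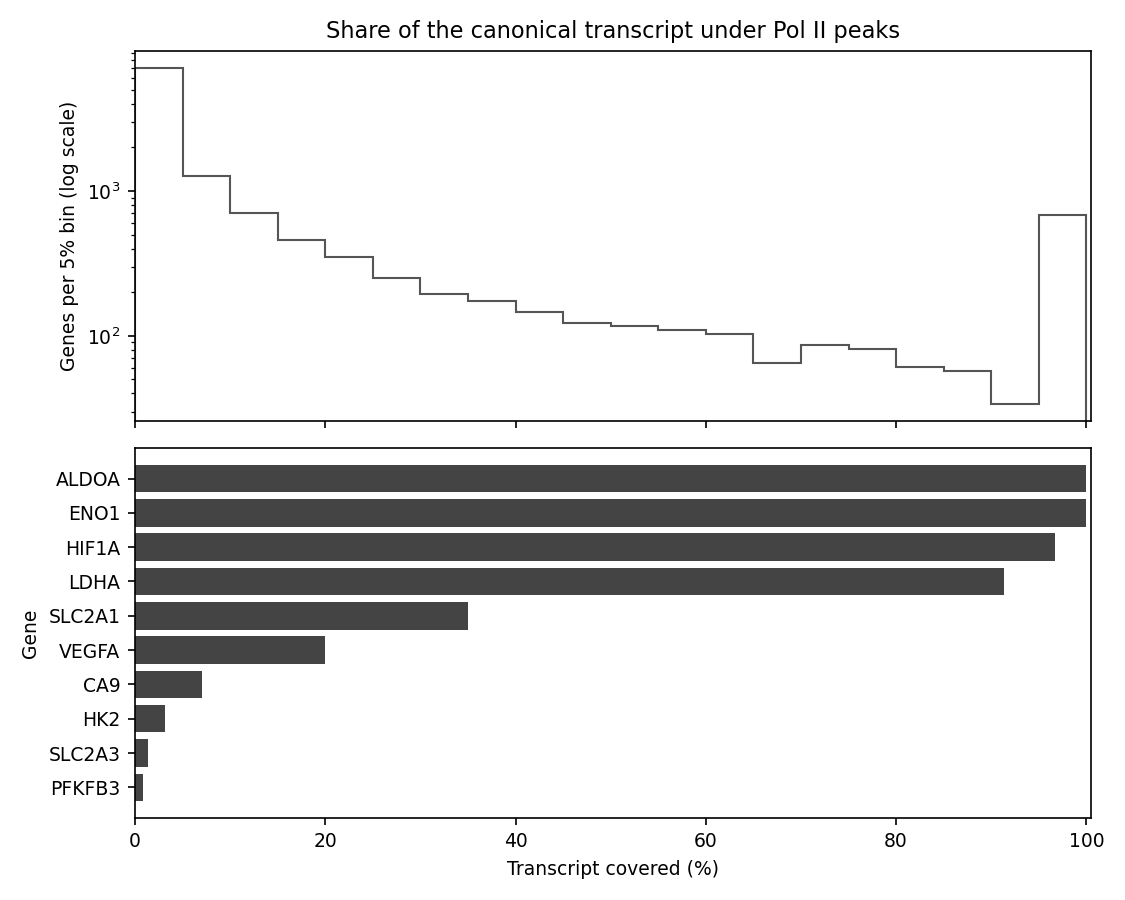
Share of the canonical transcript under Pol II peaks, in percent. The upper panel counts the protein-coding genes with some cover in bins of 5% on a log axis, and the lower panel gives the 10 genes, from 0.785% in PFKFB3 to full cover in ENO1 and ALDOA.

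In the covered genes the Pol II peaks also ran past the end of the transcript. The ENO1 peak was 26150 bp wide and reached 24.3 kb from the TSS. In LDHA a peak of 6900 bp over the promoter was followed by one of 8500 bp that ended 16.1 kb from the TSS. The ALDOA peak, 13350 bp wide, reached the TSS of PPP4C 10.2 kb downstream, so the 2 genes shared 1 peak and its width cannot be given to either alone. In CA9 the cover of 7.0% came from a peak of 1250 bp that began 6.73 kb from the TSS, at the 3' end of the gene. Pol II signal had been scaled but not background-subtracted by the authors, unlike the histone marks.

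HIF1A stood apart by the extent of its marks. Pol II peaks covered 63.3% of the gene with 50 kb either side, above 99.9% of all loci drawn the same way, against a median of 1.86%. H3K4me1 covered 50.3% (above 99.7%), H3K27ac 26.8% (above 99.2%) and H3K4me3 24.1% (above 99.8%). The Pol II cover was made of peaks of 7250, 4200 and 48100 bp over HIF1A, followed by one of 46350 bp that began 66.0 kb from the HIF1A TSS over SNAPC1, the next gene. Only 9 of the 26065 Pol II peaks were as wide as 48100 bp or wider. Toward the 3' end of HIF1A lay a second broad domain, with an H3K4me3 peak of 13950 bp from 45.6 to 59.6 kb and an H3K27ac peak of 14350 bp from 48.2 to 62.5 kb. The SNAPC1 window had its own H3K4me3 peak of 9100 bp, so the cover of the locus takes in both genes.

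Candidate active enhancers clear of promoter windows were found at every locus but CA9, and candidate inactive ones at all 10. A candidate active enhancer (cAE) was defined as a stretch of H3K4me1 overlapped by H3K27ac over 1 bp or more. It had to lie clear of the 3 kb promoter windows at the canonical TSSs of all protein-coding genes. A candidate inactive enhancer (cIE) was such a stretch without H3K27ac. Windows at other annotated starts were not excluded, and some PFKFB3 cAEs touched those of its upstream starts. The 10 genes with 50 kb either side, 1417 kb in all, held 42 cAEs and 53 cIEs. Of the 10 loci, 9 held a cAE (69.0% of all protein-coding loci). All 10 held a cIE, and only 13.4% of all protein-coding loci held none. PFKFB3 had 10 cAEs, HK2 and HIF1A 7 each, ENO1 6, LDHA, SLC2A3 and VEGFA 3 each, SLC2A1 2, ALDOA 1 and CA9 none. The CA9 locus did hold H3K4me1 regions overlapped by H3K27ac, but they touched promoter windows of other genes and were not counted. Longer genes have longer loci, and the PFKFB3 and SLC2A3 loci, 210 and 200 kb, included the upstream starts of other transcripts.

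The cAEs of these loci often carried other marks. H3K4me3 overlapped 22 of the 42, Pol II 20, p300/CBP 10 and CTCF 7. Over all 24323 cAEs the shares were 34.2% with H3K4me3, 21.0% with Pol II, 20.6% with p300/CBP and 16.4% with CTCF. The median width was 3950 bp here and 2550 bp over all cAEs, and a wider region has more room for overlaps. Some of the overlaps with H3K4me3 were with the peak over the gene's own TSS, as at LDHA, HK2 and VEGFA. Of the 53 cIEs, 1 overlapped H3K4me3, 8 Pol II, 5 CTCF and none p300/CBP. Over all cIEs the shares were 3.19% with H3K4me3, 3.77% with Pol II, 7.57% with CTCF and 1.26% with p300/CBP.

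SLC2A1 had only 2 cAEs, of which 1 spanned nearly the whole gene. This H3K4me1 region of 30700 bp ran from 3.04 to 33.7 kb downstream of the TSS, covering 90.9% of the transcript, and only 43 of 24323 cAEs were as wide or wider. H3K27ac covered 75.4% of the transcript in 7 peaks, among them one of 18200 bp from 4.89 to 23.1 kb. The next highest shares of transcript under H3K27ac were 46.6% in ALDOA and 45.2% in ENO1, where a promoter peak made up the cover. HK2 showed a chain of separate regions in place of a single domain, with 8 H3K27ac peaks over 29.9% of its 59.2 kb transcript and 8 H3K4me1 peaks over 57.0%. No other protein-coding TSS lay in the SLC2A1, HK2, PFKFB3 or VEGFA loci.

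**Figure D4:**
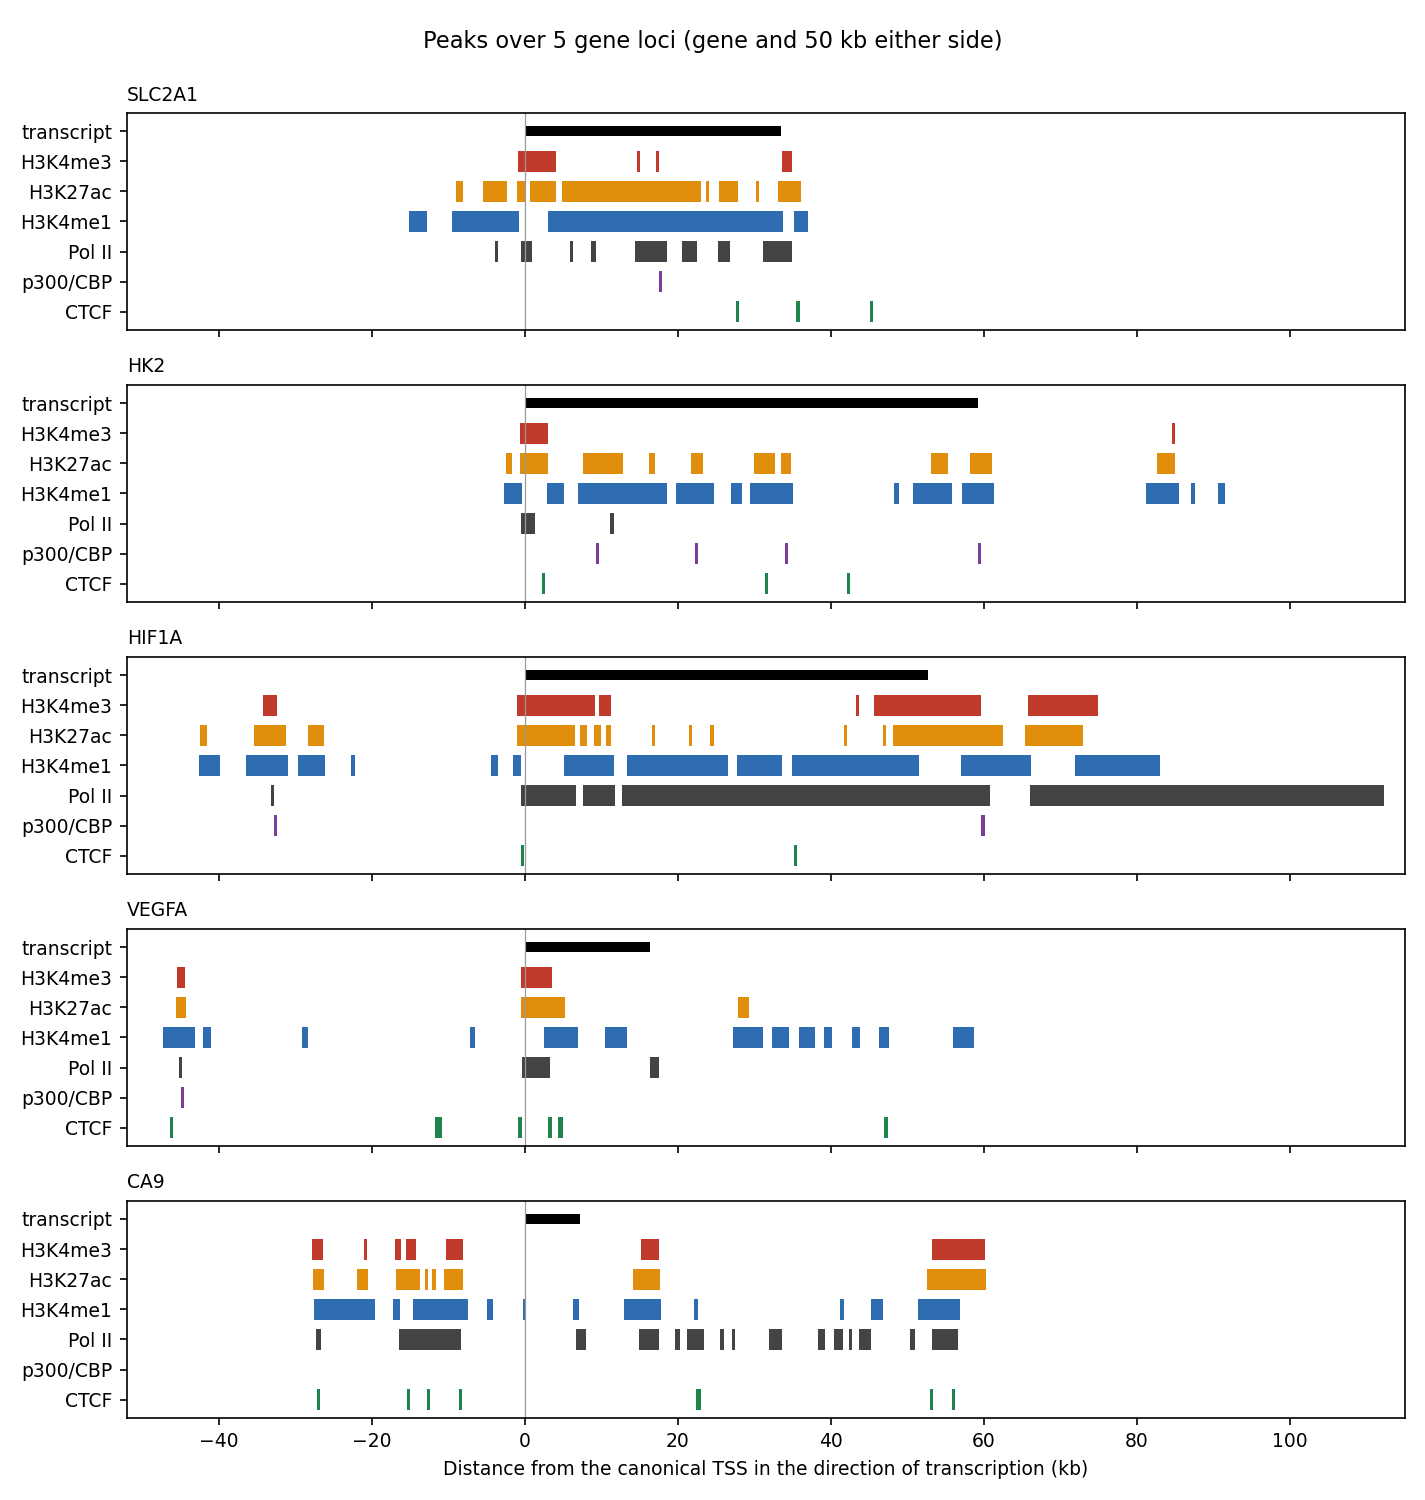
Peaks of the 6 lists over SLC2A1, HK2, HIF1A, VEGFA and CA9 with 50 kb either side of the gene, against distance from the canonical TSS in kb (peaks under 0.4 kb are drawn 0.4 kb wide, and the black bar is the canonical transcript). SLC2A1 shows H3K4me1 over nearly the whole transcript, HK2 a chain with 4 p300/CBP peaks, HIF1A near-continuous Pol II, and CA9 a transcript with no H3K4me3 or H3K27ac between ARHGEF39 and TPM2, which have both marks.

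The p300/CBP peaks lay outside the 3 kb TSS windows of the 10 genes. There were 11 over the loci of 6 genes (25.7% of all protein-coding loci held at least 1): 4 at HK2, 2 each at ENO1 and HIF1A, and 1 each at PFKFB3, SLC2A1 and VEGFA. All 11 lay on H3K27ac peaks, 10 in cAEs and 5 on Pol II peaks, where 49.3%, 50.1% and 15.2% of all p300/CBP peaks did. The list used here holds 13984 peaks, more than the paper describes, so these shares are not the paper's. The peaks of PFKFB3 and VEGFA and the HIF1A peak 32.6 kb upstream also lay on H3K4me3 peaks. At HK2 they stood 9.35, 22.3, 34.0 and 59.2 kb downstream of the TSS, in introns 1, 2 and 3 and, for the last, across the end of the gene. The SLC2A1 peak, 17.6 kb downstream in intron 2, sat within the 30700 bp region. The peaks of ENO1 lay 25.3 kb upstream and 20.2 kb downstream, those of VEGFA 44.7 kb upstream and of PFKFB3 72.5 kb downstream. LDHA, ALDOA, SLC2A3 and CA9 had none, and the nearest on their chromosomes were 1252, 800, 1699 and 155 kb from the TSS.

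TGANTCA was looked for under these peaks. It takes in the AP-1 consensus given by the authors, TGA(G/C)TCA, bound by Fos and Jun proteins, and also allows A or T in the middle. TGANTCA was present in 4 of the 11 peaks, and in 5 when the central 200 bp was read in place of the peak. The central 200 bp held it in 33.1% of all p300/CBP peaks and in 49.9% of those in cAEs. Of the HIF cores, ACGTG occurred in 1 of the 11 whole peaks and GCGTG in 1. The central 200 bp of all p300/CBP peaks, which is not the same length, held them in 8.88% and 7.53%. Peaks with TGANTCA at HK2, SLC2A1 and HIF1A are shown on the + strand of GRCh37, the match in capitals.
HK2 intron 1, chr2:75070601-75070700: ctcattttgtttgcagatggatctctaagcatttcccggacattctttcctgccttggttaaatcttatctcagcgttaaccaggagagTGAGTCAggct
SLC2A1 intron 2, chr1:43406701-43406950: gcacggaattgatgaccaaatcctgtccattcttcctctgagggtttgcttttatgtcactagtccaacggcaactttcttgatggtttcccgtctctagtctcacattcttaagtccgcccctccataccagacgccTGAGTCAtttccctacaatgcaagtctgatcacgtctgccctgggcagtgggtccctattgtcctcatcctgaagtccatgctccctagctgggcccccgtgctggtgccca
HIF1A upstream, chr14:62129401-62129650: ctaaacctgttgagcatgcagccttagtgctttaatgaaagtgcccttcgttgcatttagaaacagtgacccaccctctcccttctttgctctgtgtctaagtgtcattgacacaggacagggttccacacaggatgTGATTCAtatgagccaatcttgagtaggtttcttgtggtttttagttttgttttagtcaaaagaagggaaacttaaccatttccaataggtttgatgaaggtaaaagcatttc

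The HK2 intron 1 and SLC2A1 peaks thus held the form TGAGTCA. The HIF1A peak, 32.6 kb before the TSS in a cAE of 5400 bp, held TGATTCA. So did the HK2 peak 59.2 kb downstream, which is not shown. The SLC2A1 peak also held the ACGTG found among the 11. The other HIF1A peak differed from the rest. It lay 59.7 kb downstream, was 450 bp wide where the median p300/CBP peak was 150 bp, and was the 1 peak of the 11 outside a cAE, since its H3K4me1 region touched the SNAPC1 window. Its central 200 bp, chr14:62222026-62222225, is a tandem repeat, shown to make that plain.
HIF1A downstream: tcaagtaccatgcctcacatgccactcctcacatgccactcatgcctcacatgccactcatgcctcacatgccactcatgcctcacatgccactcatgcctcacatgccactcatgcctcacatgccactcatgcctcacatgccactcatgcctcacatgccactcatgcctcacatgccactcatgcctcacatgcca

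The part of the repeat in the result was not tested. Without it the loci held 10 p300/CBP peaks, all in cAEs, and HIF1A had 1.

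CTCF was more evenly spread, with 46 peaks over the loci and at least 1 at each of the 10 (92.8% of all protein-coding loci). ALDOA, in a gene-dense region, had 11, CA9 8, VEGFA 7 and ENO1 5, and LDHA had 1, 15.8 kb downstream of the TSS. The PFKFB3 peak of 400 bp covered the TSS. The VEGFA peak of 450 bp ended 398 bp before it, and the HIF1A peak of 250 bp ended 281 bp before it. A run of letters within the CTCF consensus (CC, 3 bases of any kind, AG, 2 of any kind, then GGC) was found on either strand in the central 300 bp of 18 of the 46 peaks, or 39.1%, against 38.6% of all CTCF peaks, and in none of the 3 at promoters. VEGFA had a pair within the gene, 3.05 and 4.40 kb from the TSS in introns 1 and 2, with the letters on opposite strands, shown here on the + strand with the match in capitals.
VEGFA intron 1, chr6:43741234-43741273, match on the - strand: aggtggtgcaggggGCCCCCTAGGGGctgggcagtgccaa
VEGFA intron 2, chr6:43742650-43742689, match on the + strand: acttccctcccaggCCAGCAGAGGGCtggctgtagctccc

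Both VEGFA peaks lay in the cAE of 4450 bp that began 2.55 kb from the TSS, and that region also overlapped the Pol II and H3K4me3 peaks of the promoter.

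CA9 lacked H3K4me3, H3K27ac and Pol II at its start in a locus that held all 3. Its transcript, 7.23 kb long, held no H3K4me3 or H3K27ac peak. Its nearest cAE, which by definition lies clear of all promoter windows, was 62.5 kb away. The locus nevertheless held 15 Pol II peaks, more than 97.9% of all protein-coding loci, with 8 H3K27ac and 7 H3K4me3 peaks. All 4 other protein-coding TSSs of the locus had H3K27ac and 3 had Pol II. The closest on each side, ARHGEF39 at 8.73 kb upstream and TPM2 at 16.0 kb downstream, had H3K27ac peaks of 2400 and 3550 bp. H3K4me1 peaks of 7300 and 4800 bp there were overlapped by H3K27ac. They touched the promoter windows of these genes, so they were not counted as cAEs. The SLC2A3 locus held 3 other protein-coding TSSs, of which only that of FOXJ2, 96.5 kb upstream, had H3K27ac, and 3 cAEs of 350 to 1100 bp.

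Other annotated starts of the same genes gave other patterns in 6 of the 10 genes. PFKFB3 has starts 58.0 and 56.6 kb upstream of the canonical one, and both windows held H3K4me3, H3K27ac, H3K4me1 and Pol II but no CTCF. Pol II peaks of 7350, 2850 and 7650 bp lay between these starts and the canonical one, outside the canonical transcript. Pol II cover of the longer gene span was not computed, and the transcript to which these peaks belong was not tested. SLC2A3 has a start 82.8 kb upstream, whose window held H3K4me3, H3K4me1 and Pol II and no H3K27ac. For ALDOA, 3 starts 1263 to 1575 bp upstream brought a CTCF peak into the window, as did a start 1043 bp downstream for HK2. A VEGFA start 1781 bp downstream had H3K4me1 in its window, and a HIF1A start 2109 bp downstream had neither H3K4me1 nor CTCF.

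The other genes of the pathways included marked and unmarked relatives. Of 59 further genes in 4 lists, 58 had a canonical TSS, and 46 of these windows held H3K27ac, or 79.3%, 45 H3K4me3, 41 H3K4me1, 44 Pol II and 17 CTCF. Only BHLHE40, a hypoxia-induced repressor, held p300/CBP, and ALDOC, the brain aldolase, held H3K27ac without H3K4me3. Among 23 other glycolytic enzymes, 16 held H3K27ac and 7 held no histone mark. Among 6 other glucose and lactate transporters 3 held H3K27ac, among 9 HIF subunits and oxygen sensors 8, and among 20 other hypoxia response genes 19.

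The unmarked windows were mostly those of isozymes known from other tissues. Among the enzymes, HK3, PFKFB1, PGAM2, PKLR and LDHC were examples with none of the 3 histone marks, and the same held for SLC2A14, the lactate transporter SLC16A1 and EPO, the hormone that drives red cell formation. HK3 and PGAM2 windows were crossed by Pol II peaks of 3550 and 13000 bp despite this. By contrast PKM, the pyruvate kinase of most tissues, had a Pol II peak of 42050 bp and 7650 bp of H3K27ac where PKLR, its liver and red cell relative, had neither. SLC16A3, which exports lactate, had a Pol II peak of 27700 bp where SLC16A1 had none. Against LDHA, LDHC, whose TSS lies 17.8 kb downstream, was unmarked in all 6 lists.

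**Figure D5:**
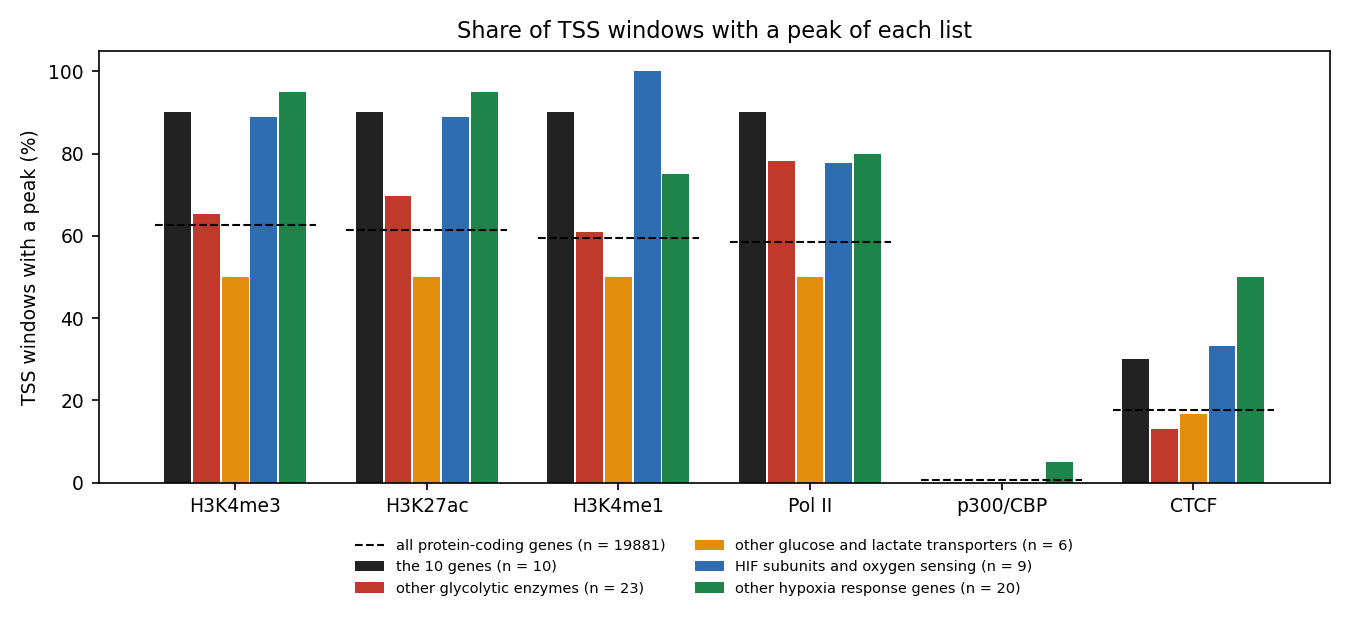
Percent of 3 kb TSS windows with a peak of each list for the 10 genes and 4 lists of other pathway genes, as bars, with the share of all 19881 protein-coding genes as a dashed line. The hypoxia response genes reach 95.0% for H3K27ac and the transporters 3 of 6, and p300/CBP is present at 1 window.

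The cell class was checked by markers. All 5 basal B and mesenchymal genes (VIM, CD44, EGFR, FOSL1, CAV1) held H3K4me3 and H3K27ac in their windows, where 62.7% and 61.5% of all protein-coding genes did. Of 7 luminal and epithelial genes, H3K27ac was present at FOXA1 and ERBB2 and absent from the lists at ESR1, PGR, GATA3, CDH1 and EPCAM. H3K4me3 was present at 3 of the 7, FOXA1, ERBB2 and PGR (700 bp). FOXA1 went against its class, with 3550 bp of H3K4me3 and 3300 bp of H3K27ac. These were wider than at 84.9% and 79.6% of windows with such a peak.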

How the data were processed

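The authors' methods give BWA-backtrack as the aligner and hg19 as the build (the submitters' processing notes name Bowtie2). Unique reads were binned at 50 bp, libraries of an antibody were combined, and bins above a threshold were joined into peaks. The deposited lists are positions only (chromosome, start and end in bp). The Pol II signal was scaled and not background-subtracted, the histone and p300/CBP signals were both, and the CTCF list names neither. Depth per sample is unknown from them. No measurement column was left unmapped (0 columns).

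From the positions, overlaps of at least 1 bp were counted with Python 3.11.15 and NumPy 2.4.6, with interval and motif functions tested on simulated data. Genes came from GENCODE release 44 mapped to GRCh37, 1 canonical TSS per protein-coding gene, and sequences from the GRCh37 assembly, whose chromosome lengths were compared with the lists. DDIT4, in a list, had no canonical transcript there and was not used. Figures were drawn with matplotlib 3.10.9. The genes, lists and motifs were chosen with earlier results of these data known. Of the other pathway genes, those were named whose window lacked the 3 histone marks, held p300/CBP, or differed in H3K4me3 and H3K27ac. Some genes that met this rule are not reported here. PKM, SLC16A3 and the marker genes were named after their values were seen. No test was run, since each list is 1 merged sample.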

Additional observations from a re-analysis of the deposited data

How the results depend on the processing

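No paired analysis was possible because each antibody has 1 list made from combined libraries, and no library could be left out. The lists carry no peak height, so keeping only the wider peaks of a list (its median width or more) stood in for a stricter threshold. Of 64 alternatives over 12 counts, 54 lay within 1.5 times the reported count. The counts of genes with H3K4me3 and H3K27ac stayed at 9 and of those with p300/CBP at 0 in every alternative run. Genes with H3K4me1 at the TSS fell from 9 to 5 in 1 kb windows and to 1 where the TSS base had to lie in the peak. Genes with CTCF at the TSS, 3 as reported, were 6 in 10 kb windows, 5 with all basic TSSs and 1 with the TSS base alone. The 42 cAEs became 22 where H3K27ac had to cover at least 50% of the H3K4me1 region, and 64 where regions at promoter windows were kept. The 53 cIEs became 33 with 25 kb flanks and 27 with the wider peaks, and the 66 Pol II peaks became 38 with the wider peaks. Loci drawn from the canonical transcript, an alternative chosen after seeing the data, gave 38 cAEs, 44 cIEs and 11 p300/CBP peaks. The lists show where signal passed a threshold, so a gene without a peak may hold signal below it.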

Other observations

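The H3K4me3 peak of 13950 bp at the 3' end of HIF1A was wider than that of 10150 bp at its canonical TSS, and the H3K27ac peak of 14350 bp there was wider than that of 7650 bp at the TSS. The annotation placed 1 gene start inside the H3K4me3 peak, that of the antisense lncRNA HIF1A-AS3, 55.6 kb downstream of the HIF1A TSS. Transcription from that start was not measured here, and the Pol II list does not separate the strands.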
